A study of Mus musculus with 12 samples.

Results

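The S phase and DNA replication genes described here are 44 genes listed by symbol, from the origin recognition proteins that mark where copying starts to the ligase that seals the finished strand. All 44 had a row among the 25208 genes of the count and TPM table, and all 44 were among the 16508 genes tested. They came from 12 libraries of mpkCCDc11 cells, an immortalised epithelial line from the cortical collecting duct of the mouse kidney. The cells were transfected with an siRNA directed at Ctnnb1, which encodes beta-catenin, or with a control siRNA, and were given either dDAVP, an agonist of the vasopressin V2 receptor, or vehicle. The 4 groups held 3 libraries each: Ctnnb1-siRNA dDAVP, Ctnnb1-siRNA vehicle, control-siRNA dDAVP and control-siRNA vehicle. Every group had received siRNA at 50 nM, 4 days of growth on a permeable support and 24 h in medium free of serum and hormones. The dDAVP groups were then exposed to 1 nM for 24 h. The siRNA acts transiently and lowers rather than deletes its target, and the immortalised line models principal cells only in part. Whether the 3 replicates came from separate cultures is not stated in the labels, so a p-value covers the spread between these libraries alone, and that spread may be technical.

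DNA replication begins in G1, when the origin recognition complex, Cdc6 and Cdt1 load the MCM helicase onto DNA. Cyclin E with its kinase partner, and the Cdc7 kinase, then fire the loaded origins, and Cdc45 and the GINS complex join MCM to make the active helicase. Polymerase alpha with primase starts each new strand, the RFC complex loads the PCNA clamp, and polymerases delta and epsilon extend the strands. Many of these genes are transcribed periodically by E2F factors, which the retinoblastoma proteins restrain until cyclin and kinase activity releases them late in G1. Collecting duct cells of the adult kidney divide rarely, whereas the immortalised line divides in culture. Beta-catenin is a coactivator of the TCF/LEF factors, and Myc and Ccnd1 are classical targets of that pathway.

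Start regions are shown because many of those found held letters of the E2F type. RefSeq start regions of GRCm38.p6, each running from 250 bases before to 50 bases after the first listed start, were found for 36 of the 44 genes. Mcm4, Gins1, Gins2, Gins4, Prim2, Pole, Rfc2 and Ccne2 had no entry. The letters searched on both strands were TTTCCCGC, TTTGGCGC, TTTGCCGC, TTTCGCGC, TTCCCGCC and TTGGCGCC, which can overlap one another. At least 1 of them stood in 18 of the 36 regions (50.0%), against 4.53% of all 27025 start regions in the table. They stood in 9 of 27 regions of genes of E2F, RB and G1 control (33.3%), in 14 of 46 regions of other replication genes (30.4%) and in 2 of 27 regions of genes of G2 and mitosis (7.41%), lists that are described further on. Whether these shares differ was not tested. The examples printed were chosen for holding a match, among genes that the values below return to. They are the helicase subunit Mcm7, the polymerase alpha catalytic subunit Pola1, the clamp loader subunit Rfc1 and the ribonucleotide reductase subunit Rrm1. Pcna, Pola2, Ccne1 and E2f1, to which the values also return, held none of these letters and are not printed. The E2f1 region, chr2:154569377-154569676, lay wholly within the annotated span of the gene (154559400 to 154569892, minus strand). Bases before that span were therefore not searched for E2f1. Capitals mark the letters found, and each run is given 5′ to 3′ on the strand of its gene. Mcm7 lies on the minus strand at chr5:138171834-138172133 and holds 2 matches, starting 165 bases before and 16 bases after the start. The annotated span of Mcm7 reaches to 138172111, beyond the start used here, so both matches lie within it. Pola1 lies on the minus strand at chrX:93632106-93632405, with overlapping matches 139 and 138 bases before the start. The annotated span of Pola1 reaches to 93632387, so these matches also lie within the span of their gene. Rfc1 lies on the minus strand at chr5:65335590-65335889, within the annotated span of the gene, with a palindromic pair 27 and 29 bases after the start. Rrm1 lies on the plus strand at chr7:102441445-102441744, with a match 67 bases before the start.
Mcm7: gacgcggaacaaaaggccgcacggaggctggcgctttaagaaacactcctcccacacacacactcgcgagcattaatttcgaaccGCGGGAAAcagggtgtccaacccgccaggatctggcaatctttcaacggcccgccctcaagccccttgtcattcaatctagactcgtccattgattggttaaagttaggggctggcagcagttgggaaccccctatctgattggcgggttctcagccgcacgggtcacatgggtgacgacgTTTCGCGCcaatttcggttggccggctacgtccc
Pola1: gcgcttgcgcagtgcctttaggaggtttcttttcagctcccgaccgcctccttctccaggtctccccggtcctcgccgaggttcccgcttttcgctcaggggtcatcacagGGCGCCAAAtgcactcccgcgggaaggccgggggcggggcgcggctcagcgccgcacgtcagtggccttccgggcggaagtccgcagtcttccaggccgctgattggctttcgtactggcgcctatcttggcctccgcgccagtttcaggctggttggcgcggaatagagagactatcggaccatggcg
Rfc1: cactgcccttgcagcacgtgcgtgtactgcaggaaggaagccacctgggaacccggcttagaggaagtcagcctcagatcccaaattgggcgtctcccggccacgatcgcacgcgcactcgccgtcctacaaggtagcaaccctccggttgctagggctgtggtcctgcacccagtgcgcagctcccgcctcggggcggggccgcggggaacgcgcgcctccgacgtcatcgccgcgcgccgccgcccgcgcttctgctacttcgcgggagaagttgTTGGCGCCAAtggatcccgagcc
Rrm1: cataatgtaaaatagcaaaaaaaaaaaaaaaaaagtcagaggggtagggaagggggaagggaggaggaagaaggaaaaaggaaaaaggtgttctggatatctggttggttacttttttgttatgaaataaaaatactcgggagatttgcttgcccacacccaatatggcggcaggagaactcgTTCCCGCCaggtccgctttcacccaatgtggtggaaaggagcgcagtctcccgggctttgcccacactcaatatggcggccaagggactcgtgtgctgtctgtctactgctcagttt
For contrast, the start region of the mitotic topoisomerase Top2a on the minus strand at chr11:99024140-99024439 held none of the E2F-type letters. Its capitals mark CCAAT, or ATTGG on the other strand, and TTTGAA, or TTCAAA on the other strand, the letters of the CHR element known from mitotic promoters. Top2a held 6 of the first and 2 of the second, more than other mitotic genes named further on. Ttk held 2 and 1, Bub1 2 and 0, and Nusap1 0 and 0.
Top2a: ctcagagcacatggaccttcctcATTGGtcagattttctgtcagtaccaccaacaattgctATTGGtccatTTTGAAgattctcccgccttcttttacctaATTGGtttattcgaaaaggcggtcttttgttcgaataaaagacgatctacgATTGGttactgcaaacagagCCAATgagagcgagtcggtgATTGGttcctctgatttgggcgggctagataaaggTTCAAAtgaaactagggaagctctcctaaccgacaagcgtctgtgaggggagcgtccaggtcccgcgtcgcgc
TTTGAA stood in 4 of the 36 replication regions (11.1%), in 21 of 27 regions of G2 and mitosis genes (77.8%), in 8 of 27 of E2F, RB and G1 control (29.6%), in 8 of 46 of other replication genes (17.4%) and in 18.1% of all regions. CCAAT stood in 22 of the 36 (61.1%), in 21 of 27 (77.8%), 10 of 27 (37.0%) and 21 of 46 (45.7%) regions of these lists and in 37.9% of all regions. The median GC content was 59.2% in the replication regions, 58.7% in those of G2 and mitosis genes and 52.7% in all regions. A match is a run of letters and not a bound site.

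The libraries held 32997720 to 48935473 counted reads, and the 44 genes took 0.777% to 0.848% of them. Ctnnb1 itself had 326 to 342 CPM in Ctnnb1-siRNA dDAVP libraries and 306 to 334 CPM in those with vehicle, against 776 to 811 CPM in control-siRNA dDAVP and 745 to 766 CPM in control-siRNA vehicle libraries. CPM is the read count scaled to a common library size after TMM normalisation. The knockdown was 2.37-fold with dDAVP (edgeR adjusted p = 7.6e-10) and 2.39-fold with vehicle (adjusted p = 6.3e-10). Aqp2, the water channel that dDAVP is known to induce, had 155 to 187 reads in Ctnnb1-siRNA dDAVP libraries against 0 to 6 in Ctnnb1-siRNA vehicle libraries, and 189 to 302 reads in control-siRNA dDAVP libraries against 0 to 2 in control-siRNA vehicle libraries. All 9 epithelial markers and 8 of 11 principal cell markers reached a mean of 1 TPM, while Aqp4, Scnn1b and Elf5 did not. Of markers of other cells, none for intercalated cells, fibroblasts or endothelium reached 1 TPM, and Lrp2 of the proximal tubule and Cd68 of leukocytes did. Ctnnb1-siRNA dDAVP replicate 3 stood apart from the other 2 libraries of its group, as described with the values it touches.

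The replication genes were among the abundant mRNAs of the cells. Their median level over the 12 libraries was 100.4 TPM, a length-corrected scale on which levels of different genes can be compared, against 14.8 TPM for all tested genes. Of the 44 genes, 25 lay in the top 10% of tested genes by mean TPM and 40 in the top 25%. Even the gene with the fewest reads, in its lowest library, had 560, and the highest value was 30522. Pcna, the clamp that tethers polymerases to DNA, was the highest of the 44. It averaged 800.3 ± 32.8 TPM in Ctnnb1-siRNA dDAVP, 784 ± 33.4 in Ctnnb1-siRNA vehicle, 774 ± 26.0 in control-siRNA dDAVP and 824 ± 23.7 in control-siRNA vehicle libraries (SD, n = 3 each). Mcm7 followed, with 435 ± 11, 444 ± 6.37, 442 ± 10.8 and 470.2 ± 12.7 TPM in the same groups. The transcription factor E2f1 was the lowest, with 11.7 ± 0.554, 12.3 ± 0.803, 13.3 ± 2.52 and 13.1 ± 0.960 TPM. The group means of each of these 3 genes lay within a narrow band beside the distance between the genes, as the plot of levels by library shows for all 44.

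**Figure D1:**
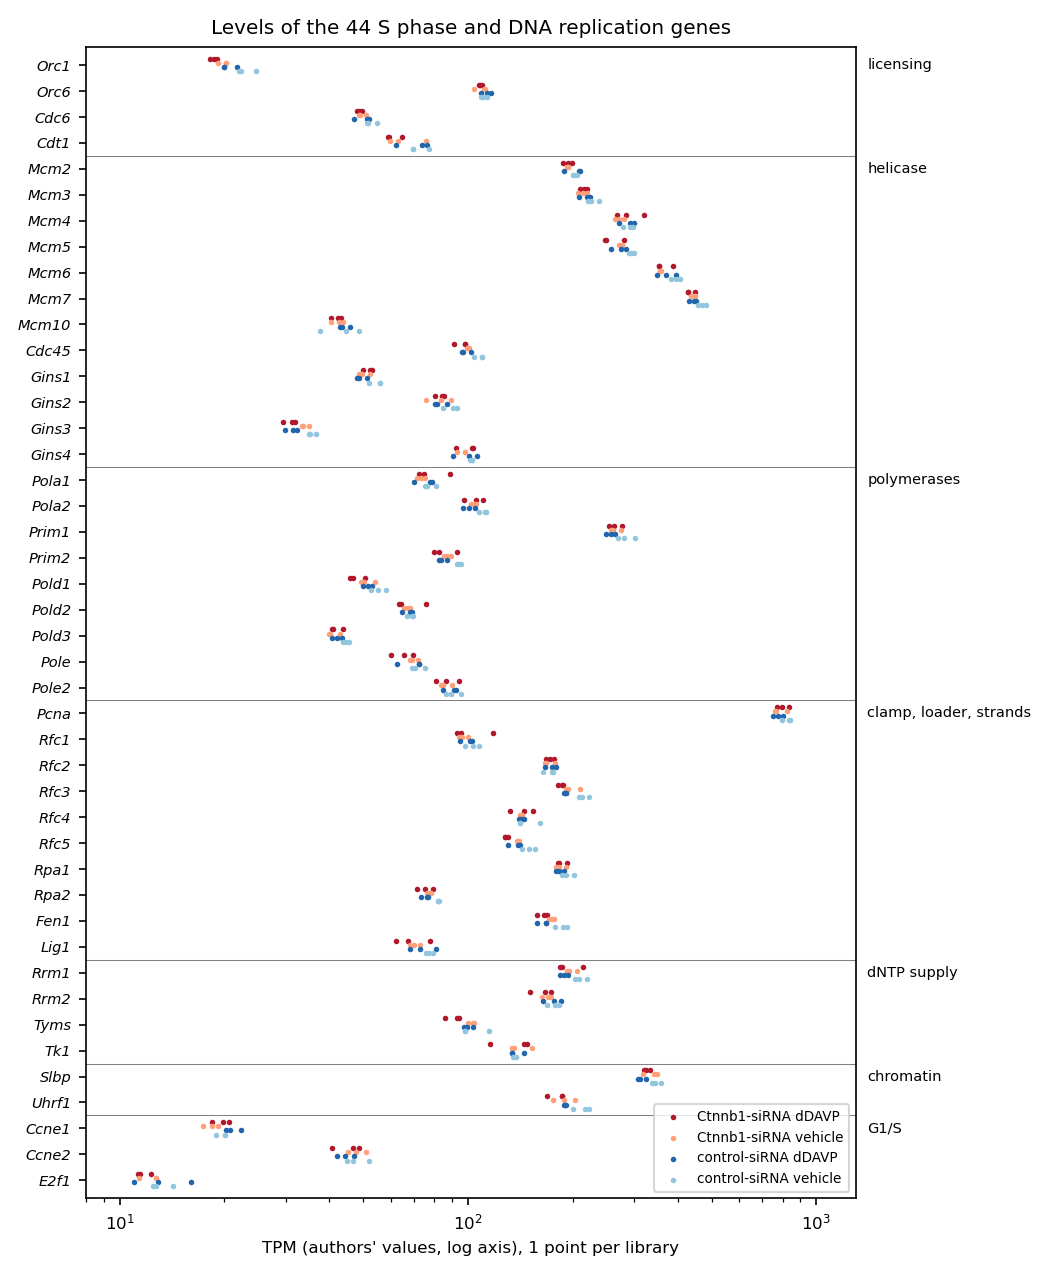
Level of each of the 44 genes in each of the 12 libraries, in TPM on a log axis, with 1 point per library coloured by group and genes ordered by role. The genes span 12.6 TPM (E2f1) to 795.5 TPM (Pcna) by their mean over 12 libraries, while the 12 points of each gene lie close together.

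Among the licensing factors, Orc6 was the highest at 104 to 117 TPM over the 12 libraries and Orc1, the largest subunit of the origin recognition complex, the lowest at 18.2 to 24.6 TPM. Cdt1 had 58.8 to 77.2 TPM and exceeded Cdc6, at 47.0 to 54.8 TPM, in 12 of 12 libraries. The 6 subunits of the MCM hexamer, which assemble in equal numbers, were not equal as mRNA. Mcm7 exceeded Mcm6 in 12 of 12 libraries, Mcm6 exceeded both Mcm4 and Mcm5 in 12 of 12, each of these exceeded Mcm3 in 12 of 12, and Mcm3 exceeded Mcm2 in 12 of 12. The neighbours Mcm4 and Mcm5 did not keep an order, since Mcm4 was higher in 9 of 12 libraries with a ratio between 0.948 and 1.295. Means over the libraries ran from 198 TPM for Mcm2 to 448 TPM for Mcm7. Mcm10, a factor that acts on the loaded helicase and is no subunit of the hexamer, had 37.6 to 48.6 TPM. The helicase partners were lower than the hexamer, with Cdc45 at 91.3 to 109.9 TPM and the order Gins4, Gins2, Gins1 and Gins3 in every library.

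The polymerase genes had a median of 76.3 TPM. Prim1, the catalytic primase subunit, stood above its partner Prim2 by 2.82-fold to 3.28-fold in the 12 libraries, with 248 to 301 TPM. The accessory subunits Pola2 and Pole2 exceeded the catalytic subunits Pola1 and Pole in 12 of 12 libraries, by 1.24-fold to 1.47-fold and by 1.22-fold to 1.36-fold. In the clamp loader the order was Rfc3, Rfc2, then Rfc4 and Rfc5, which did not keep an order (Rfc4 higher in 10 of 12), and Rfc1, the large subunit that sets this loader apart, in last place. Of the single-strand binding proteins, Rpa1 exceeded Rpa2 by 2.26-fold to 2.70-fold. The flap nuclease Fen1 had 157 to 192 TPM and the ligase Lig1 62.1 to 81.1 TPM. In deoxynucleotide supply, the reductase subunits were close to each other, Rrm1 above Rrm2 by 1.02-fold to 1.24-fold in 12 of 12 libraries. Thymidine kinase Tk1 had 116 to 153 TPM and thymidylate synthase Tyms 86.1 to 115 TPM. Slbp, which binds the stem-loop of replication-dependent histone mRNAs, had 308 to 357 TPM, and Uhrf1, which guides maintenance methylation of the new strand, 168 to 222 TPM. The G1/S regulators were the lowest group, with Ccne2 at 40.7 to 52.1 TPM and above Ccne1, the other cyclin E, by 1.89-fold to 2.76-fold.

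Neither dDAVP nor the knockdown moved a replication gene past the test. With dDAVP against vehicle in Ctnnb1-siRNA cells, 0 of 44 genes were called by edgeR at an adjusted p under 0.05, where 2.78% of all tested genes were called. With dDAVP against vehicle in control-siRNA cells the count was 0 of 44, against 2.83% of all genes. For Ctnnb1 siRNA against control siRNA it was 0 of 44 with dDAVP, against 0.267%, and 0 of 44 with vehicle, against 0.43%. Averaged over both siRNAs the dDAVP effect called 0 of 44, against 6.86%, and averaged over both treatments the knockdown called 0 of 44, against 1.85%. The interaction, which asks whether the dDAVP effect differed between the siRNAs, called 0 of 44 and 0% of all genes. These comparisons share libraries and are not independent of one another. In bulk RNA, fewer cells in S phase and less RNA per cell cannot be told apart. Beside these counts of 0, other tools called 1 gene, Mcm4, in the first comparison (DESeq2), and for the average dDAVP effect 2 (DESeq2), 1 (voom) or 4 (limma on log2 TPM). Of all 16508 tested genes, DESeq2 called 728 in the first comparison. For the average dDAVP effect DESeq2 called 1438 of them, voom 1843 and limma on log2(TPM + 1) 1055. In the 5 other comparisons these tools called none of the 44.

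At an unadjusted p under 0.05, 4 genes were higher and 0 lower with dDAVP in Ctnnb1-siRNA cells, where 13.7% of all genes passed in either direction. In control-siRNA cells 1 was higher and 2 were lower with dDAVP, against 14.6% of all genes. With Ctnnb1 siRNA 6 were higher and 0 lower in the presence of dDAVP, against 11.7%, and 0 passed with vehicle, against 8.09%. For the average dDAVP effect 3 were higher and 1 lower, against 19.1%, for the average knockdown effect 0 passed, against 13.2%, and for the interaction 1 was higher and 0 lower, against 5.02%. As shares of the 44 these counts are 9.09%, 6.82%, 13.6%, 0%, 9.09%, 0% and 2.27%, and 1 of the 7, for the knockdown with dDAVP, lay above its background share.

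The 95% intervals of the fold changes were narrow. In the 6 comparisons other than the interaction, every interval of all 44 genes stayed within a 1.3-fold change in either direction. The outermost limits were a 1.24-fold rise for Ccne1 with dDAVP in Ctnnb1-siRNA cells and a 1.23-fold fall for Cdt1 with Ctnnb1 siRNA in the presence of dDAVP. The median distance from an estimate to its limit was 0.12 on the log2 scale in the pairwise comparisons and 0.088 in the averages. For the interaction it was 0.18, and 42 of 44 intervals stayed within 1.3-fold and 44 within 1.5-fold. The estimates ran from -0.07 (Orc1) to 0.16 (Ccne1) for dDAVP in Ctnnb1-siRNA cells and from -0.14 (Gins3) to 0.15 (Ccne1) in control-siRNA cells. For Ctnnb1 siRNA they ran from -0.12 (Cdt1) to 0.14 (Gins1) with dDAVP and from -0.10 (Uhrf1) to 0.10 (Tk1) with vehicle. The genes were also steady between libraries. Their median coefficient of variation over the 12 libraries was 5.19%, from 1.94% for Rrm2 to 8.15% for Tk1, against 6.35% for the 8527 tested genes in the same range of mean CPM (17.4 to 589).

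**Figure D2:**
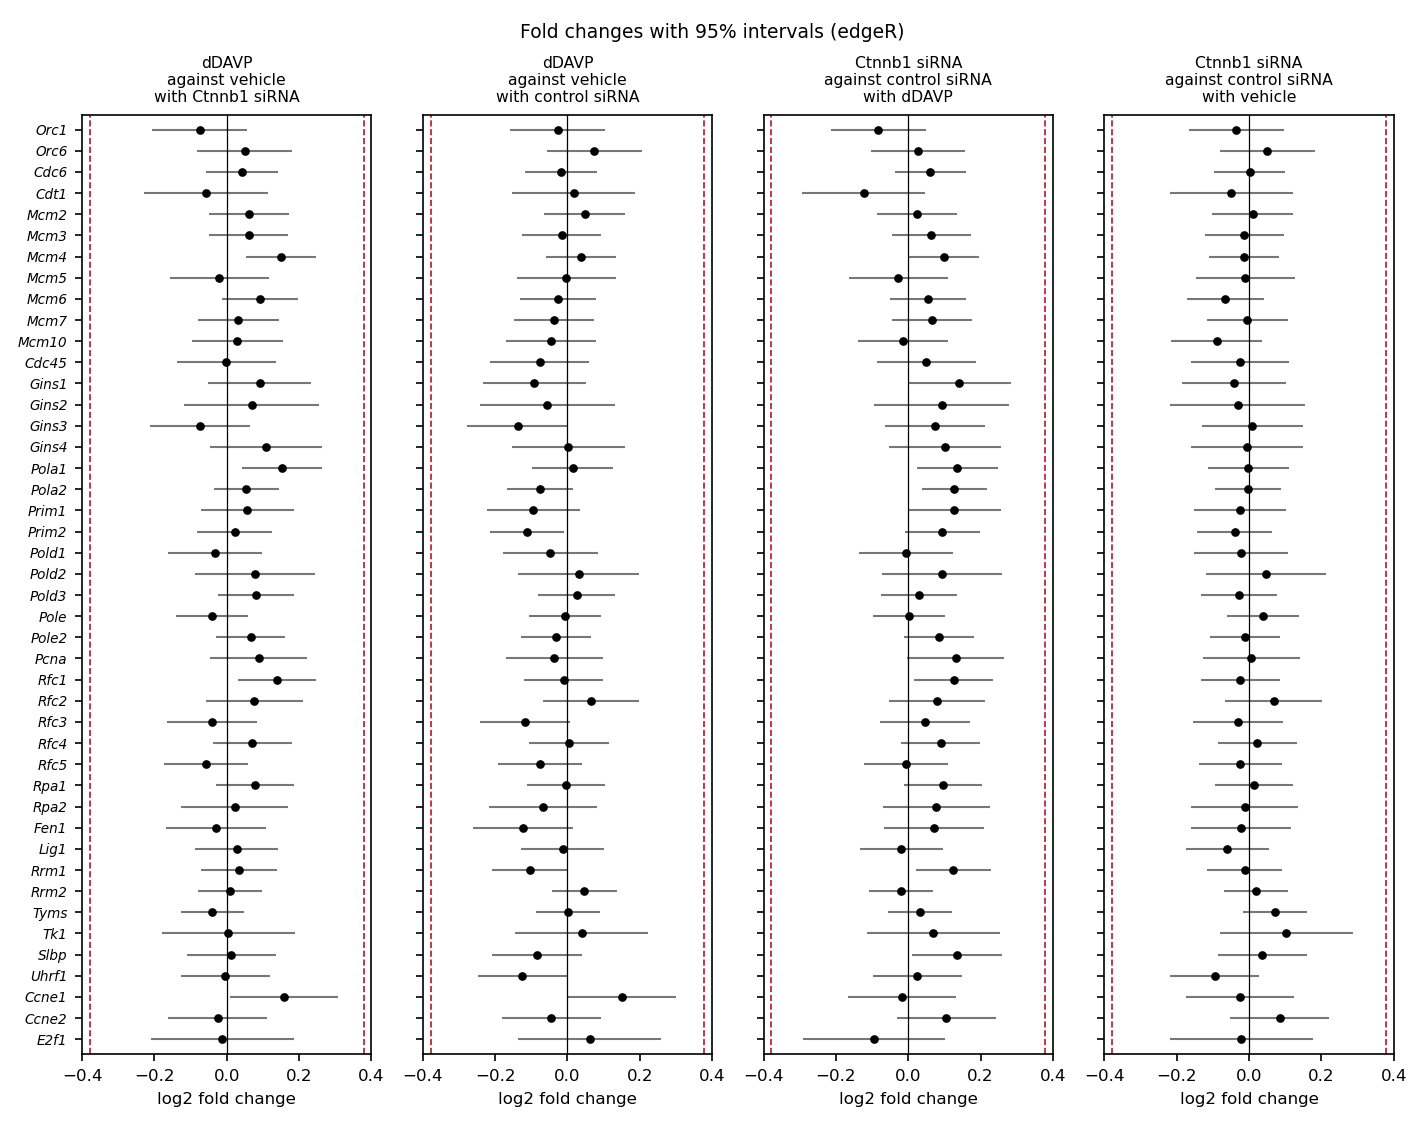
Log2 fold change of each of the 44 genes (points) with its 95% interval (lines) from edgeR in the 4 pairwise comparisons, 3 libraries per group. Dashed lines mark a 1.3-fold change in either direction, which none of the intervals reaches.

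The 6 genes with the smallest p in any comparison were Mcm4, Ccne1, Pola2, Pola1, Rfc1 and Rrm1, none of them called. Mcm4, a subunit of the helicase (chromosome 16, 15623897 to 15637400 in GRCm38), had the smallest p of all. It had 548, 548 and 572 CPM in Ctnnb1-siRNA dDAVP, 477, 501 and 524 in Ctnnb1-siRNA vehicle, 518, 517 and 521 in control-siRNA dDAVP and 509, 504 and 503 in control-siRNA vehicle libraries. In CPM the 3 Ctnnb1-siRNA dDAVP libraries were the highest of the 12, and with either siRNA the dDAVP values lay above those with vehicle without overlap. In TPM they overlapped, at 268 to 319 with dDAVP against 263 to 281 with vehicle in Ctnnb1-siRNA cells. In control-siRNA cells Mcm4 had 271 to 299 TPM with dDAVP against 279 to 298 TPM with vehicle. The log2 fold change with dDAVP was 0.15 ± 0.045 (SE) in Ctnnb1-siRNA cells (edgeR adjusted p = 0.105) and 0.04 ± 0.045 in control-siRNA cells (adjusted p = 0.768). DESeq2 called the first difference at an adjusted p of 0.0148. The difference between the siRNAs was 0.11 ± 0.064 (interaction, adjusted p = 0.918). Under 22 alternatives the change in Ctnnb1-siRNA cells stayed positive, from 0.09 to 0.19, with adjusted p from 0.0148 to 0.580.

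Ccne1, cyclin E1 (chromosome 7, 38097984 to 38107490), had 19.4, 22.1 and 20.1 CPM in Ctnnb1-siRNA dDAVP against 18.9, 18.6 and 17.7 in Ctnnb1-siRNA vehicle libraries. It had 21.1, 21.5 and 19.7 CPM in control-siRNA dDAVP against 18.8, 18.8 and 18.5 in control-siRNA vehicle libraries. In CPM every dDAVP library was above every vehicle library, and the siRNAs did not separate. In TPM the dDAVP libraries (18.4 to 22.3) overlapped the vehicle libraries (17.4 to 20.1). The average dDAVP effect was 0.15 ± 0.050 on the log2 scale (edgeR adjusted p = 0.0798), and it was 0.16 ± 0.070 in Ctnnb1-siRNA and 0.15 ± 0.070 in control-siRNA cells. DESeq2 called the average at an adjusted p of 0.0489, the lowest of 22 alternatives, of which the highest was 0.302.

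In Pola1 and Rfc1, as in Mcm4, the Ctnnb1-siRNA dDAVP group had the highest mean and the other 3 groups lay together. Pola1, the catalytic subunit of polymerase alpha whose start region is printed above, had 208, 227 and 237 CPM in Ctnnb1-siRNA dDAVP, 198, 197 and 209 in Ctnnb1-siRNA vehicle, 204, 199.6 and 208 in control-siRNA dDAVP and 206, 196 and 204 in control-siRNA vehicle libraries. In CPM the lowest Ctnnb1-siRNA dDAVP value overlapped Ctnnb1-siRNA vehicle and control-siRNA dDAVP and lay above control-siRNA vehicle. In TPM the Ctnnb1-siRNA dDAVP values of Pola1 overlapped control-siRNA vehicle as well, at 72.3 to 88.7 against 75.4 to 81.1. The log2 fold change of dDAVP in Ctnnb1-siRNA cells was 0.15 ± 0.053 (adjusted p = 0.168) and that of Ctnnb1 siRNA with dDAVP 0.14 ± 0.053 (adjusted p = 0.328). Rfc1, the large clamp loader subunit (chromosome 5, 65261852 to 65338617), had 247, 257 and 279 CPM in Ctnnb1-siRNA dDAVP, 229, 235 and 247 in Ctnnb1-siRNA vehicle, 234, 239 and 245 in control-siRNA dDAVP and 242, 238 and 243 in control-siRNA vehicle libraries. Its Ctnnb1-siRNA dDAVP values lay above all others in CPM, by the margin of 246.9 against 246.6 CPM at the closest. In TPM they overlapped the others, at 93.1 to 118 against 94.5 to 107. Its changes were 0.14 ± 0.051 with dDAVP in Ctnnb1-siRNA cells (adjusted p = 0.201) and 0.13 ± 0.051 with Ctnnb1 siRNA in the presence of dDAVP (adjusted p = 0.351). Without Ctnnb1-siRNA dDAVP replicate 3, its highest library, these changes of Rfc1 were 0.09 and 0.07. With voom and sample weights the knockdown estimate with dDAVP was 0.07 for Rfc1 and 0.07 for Pola1.

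Pola2 and Rrm1 differed from that pattern in being low in the control-siRNA dDAVP group. Pola2, the accessory subunit of polymerase alpha, had 137, 134.9 and 133 CPM in Ctnnb1-siRNA dDAVP, 128, 128 and 134 in Ctnnb1-siRNA vehicle, 124, 125 and 122 in control-siRNA dDAVP and 132, 129.6 and 129 in control-siRNA vehicle libraries. In CPM all 3 control-siRNA dDAVP libraries lay below the other 9. In TPM these libraries (96.9 to 104.6) overlapped those of Ctnnb1-siRNA dDAVP (97.6 to 110.3) and Ctnnb1-siRNA vehicle (102.0 to 105.7). They stayed below those of control-siRNA vehicle (107.7 to 112.9 TPM). Ctnnb1 siRNA against control siRNA with dDAVP gave 0.13 ± 0.043 (edgeR adjusted p = 0.256), and the interaction was 0.13 ± 0.060 (adjusted p = 0.918). Rrm1, the large subunit of ribonucleotide reductase (chromosome 7, 102441695 to 102469771), had 399, 417 and 426 CPM in Ctnnb1-siRNA dDAVP, 387, 402 and 426 in Ctnnb1-siRNA vehicle, 365, 389.7 and 385 in control-siRNA dDAVP and 412, 400.2 and 413 in control-siRNA vehicle libraries. In CPM the control-siRNA dDAVP values lay below both the Ctnnb1-siRNA dDAVP and the control-siRNA vehicle values, and overlapped those of Ctnnb1-siRNA vehicle. In TPM they also overlapped those of Ctnnb1-siRNA dDAVP, at 183.6 to 193.5 against 183.5 to 213.7, and stayed below those of control-siRNA vehicle (202.5 to 219.9). The change of Rrm1 with Ctnnb1 siRNA in the presence of dDAVP was 0.12 ± 0.049 (adjusted p = 0.337), and with dDAVP in control-siRNA cells -0.10 ± 0.049 (adjusted p = 0.350). The change of Mcm4 with dDAVP in control-siRNA cells was reversed in TPM, with means of 287 TPM against 290 TPM with vehicle. On log2(TPM + 1) the estimates of these 6 genes given next kept their sign and were smaller. With dDAVP in Ctnnb1-siRNA cells they were 0.09 for Mcm4, 0.09 for Pola1 and 0.07 for Rfc1, and with Ctnnb1 siRNA in the presence of dDAVP 0.05 for Pola1, 0.03 for Rfc1, 0.05 for Pola2 and 0.04 for Rrm1. The average dDAVP effect on Ccne1 was 0.09 on that scale, and its change in Ctnnb1-siRNA cells was 0.10 in log2 CPM without Ctnnb1-siRNA dDAVP replicate 2.

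**Figure D3:**
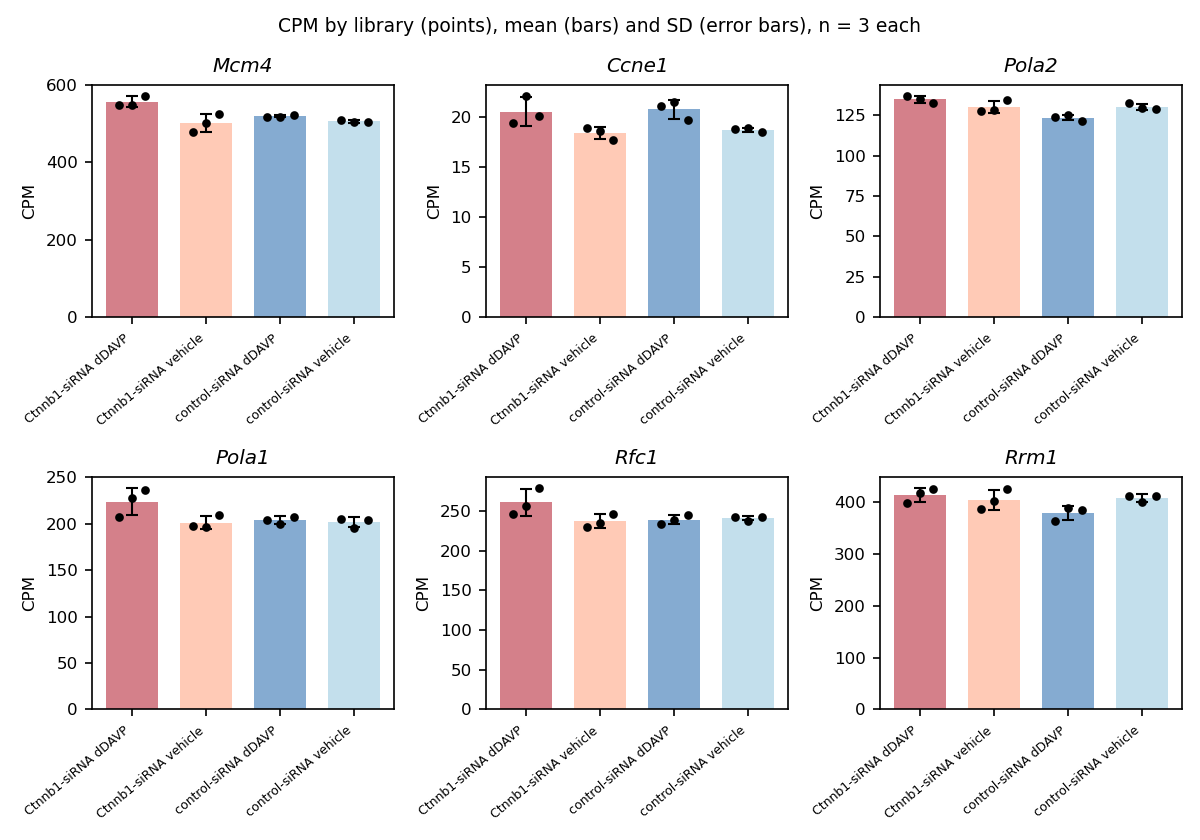
CPM of the 6 genes with the smallest p in each library (points), with the mean (bars, from 0) and SD (error bars) of the 3 libraries of each group. In CPM Ccne1 is higher in all 6 dDAVP than in all 6 vehicle libraries and Pola2 is lowest in control-siRNA dDAVP (122 to 125 CPM). In TPM the dDAVP and vehicle libraries overlap for Ccne1. For Pola2 in TPM, control-siRNA dDAVP overlaps both Ctnnb1-siRNA groups and stays below control-siRNA vehicle. None of the differences passed the adjusted test of edgeR.

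The estimates over the whole list were small and no gene was called, so their signs are given as a description. For dDAVP in Ctnnb1-siRNA cells 30 of 44 estimates were positive with a median of 0.033 on the log2 scale, against 48.5% positive and a median of -0.0049 over all tested genes. In control-siRNA cells 15 of 44 were positive with a median of -0.022, against 48.7% and -0.0042. For Ctnnb1 siRNA with dDAVP 34 of 44 were positive with a median of 0.067, and with vehicle 15 of 44 with a median of -0.012. On log2(TPM + 1) the counts of positive estimates became 18, 6, 16 and 2 of 44 in the same order, while the median of all tested genes was itself -0.049, -0.046, -0.065 and -0.068. The median of the 44 genes minus that of all genes was 0.038, -0.018, 0.066 and -0.0094 in log2 CPM and 0.027, -0.030, 0.045 and -0.021 in log2(TPM + 1), with the same sign on both scales in each comparison. For the interaction 35 of 44 were positive with a median of 0.073 in log2 CPM and 34 of 44 with a median of 0.065 in log2 TPM, against 51.1% positive over all genes. All 10 genes of the clamp, clamp loader, single-strand binding and strand joining group had a positive interaction estimate (0.01 to 0.15), as did 11 of 12 of the helicase group and 8 of 9 of the polymerases and primase. Of the licensing factors 1 of 4 was positive, and of the deoxynucleotide genes 1 of 4. Genes within one library share its depth and composition, so these counts are no test.

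The library medians show how far this rests on single libraries. The median over the 44 genes of log2 CPM minus each gene's mean was 0.04, 0.09 and -0.03 in the 3 Ctnnb1-siRNA dDAVP libraries, -0.02, -0.02 and 0.03 in Ctnnb1-siRNA vehicle, -0.06, 0.002 and -0.02 in control-siRNA dDAVP and 0.04, -0.04 and -0.01 in control-siRNA vehicle libraries. All 4 groups overlapped, and the Ctnnb1-siRNA dDAVP group held the highest median as well as one below 0. Ctnnb1-siRNA dDAVP replicate 3 had the widest spread of the 44 genes about their means, an interquartile range of 0.163 against 0.0543 to 0.0878 in the other 11 libraries, from -0.22 for Tk1 to 0.19 for Rfc1. Without that library the genes at an unadjusted p under 0.05 numbered 16 for Ctnnb1 siRNA with dDAVP, 8 for dDAVP in Ctnnb1-siRNA cells and 8 for the interaction, and 0 were called in any comparison. Over the 12 fits that each left out 1 library, these counts ran from 2 to 16, from 3 to 8 and from 0 to 8. The share of all tested genes at an unadjusted p under 0.05 was not counted in these fits, so the counts have no background beside them. Without Ctnnb1-siRNA dDAVP replicate 3, genes called by adjusted p over all tested genes numbered 216, 492 and 0 in the same order. With all libraries they numbered 44, 459 and 0. The median interaction estimate was 0.033 without Ctnnb1-siRNA dDAVP replicate 2 and 0.0997 without replicate 3 of that group. It was 0.047 without Ctnnb1-siRNA vehicle replicate 1. The medians of the pairwise comparisons also moved with single libraries. Without control-siRNA vehicle replicate 1 the median for dDAVP in control-siRNA cells was -0.0003 with 22 of 44 positive, and without control-siRNA dDAVP replicate 1 it was -0.012 with 18 positive. For Ctnnb1 siRNA with vehicle the median was 0.010 with 27 positive without control-siRNA vehicle replicate 1, and -0.019 with 11 positive without replicate 2 of that group. It was 0.0014, -0.0036 and -0.019 without Ctnnb1-siRNA vehicle replicate 1, 2 and 3. For Ctnnb1 siRNA with dDAVP the median was 0.025 with 30 positive without Ctnnb1-siRNA dDAVP replicate 2 and 0.040 with 34 positive without control-siRNA dDAVP replicate 1. For dDAVP in Ctnnb1-siRNA cells it was 0.015 with 27 positive without Ctnnb1-siRNA dDAVP replicate 2, 0.074 with 37 positive without replicate 3 of that group and 0.053 with 33 positive without Ctnnb1-siRNA vehicle replicate 3.

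**Figure D4:**
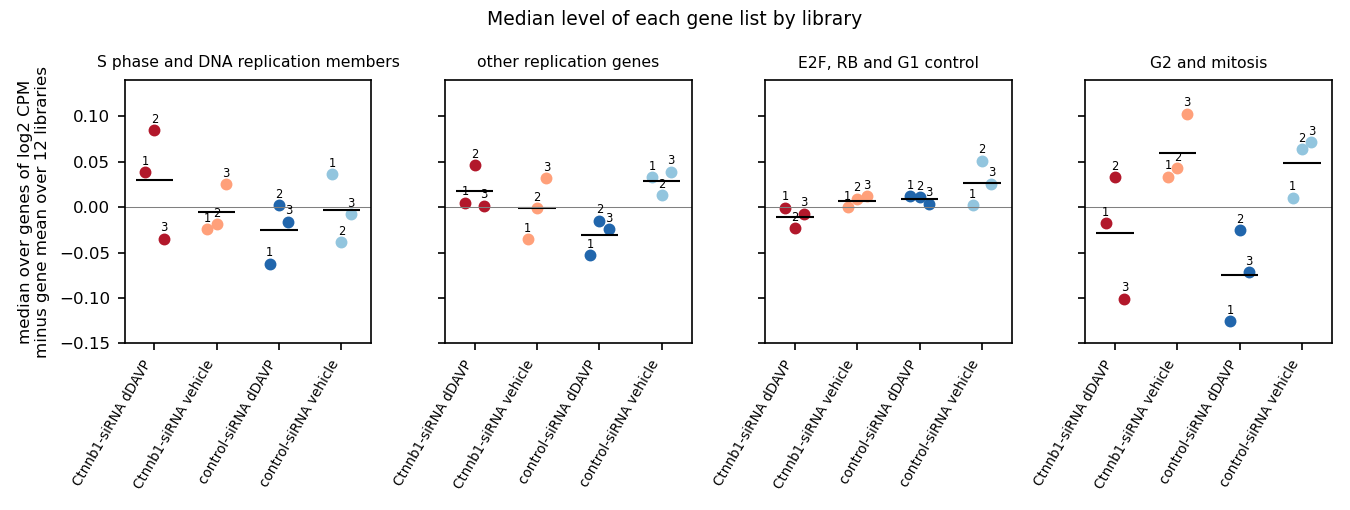
Median over each gene list of log2 CPM minus the gene's mean over 12 libraries, 1 numbered point per library (the number is the replicate) and a line at the mean of each group of 3. The replication genes overlap between all groups, while the G2 and mitosis genes are lower in dDAVP libraries on average than in vehicle libraries, with overlap between the 2.

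Other genes of replication and of the cell cycle were read from lists kept apart from the 44. The 58 other replication genes, from Orc2 to Ung, had a median level of 60.0 TPM over the 12 libraries, from 13.9 TPM for Rrm2b, a p53-inducible subunit of ribonucleotide reductase, to 253 TPM for Ssrp1, a subunit of the histone chaperone FACT. The library medians of log2 CPM minus each gene's mean ran from 0.002 to 0.05 in Ctnnb1-siRNA dDAVP, from -0.04 to 0.03 in Ctnnb1-siRNA vehicle, from -0.05 to -0.01 in control-siRNA dDAVP and from 0.01 to 0.04 in control-siRNA vehicle libraries. With Ctnnb1 siRNA the dDAVP and vehicle libraries overlapped, and with control siRNA the dDAVP libraries lay below the vehicle libraries, a description that was not tested.

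Of 35 genes of E2F, RB and G1 control, 33 were tested. Myc, which drives growth and entry into the cycle, had 44.5, 39.3 and 36.2 CPM in control-siRNA dDAVP against 31.9, 30.0 and 26.0 CPM in control-siRNA vehicle libraries. In Ctnnb1-siRNA cells it had 35.8, 34.7 and 36.8 CPM with dDAVP against 28.5, 29.9 and 31.4 CPM with vehicle. All 6 dDAVP libraries exceeded all 6 vehicle libraries. The log2 fold change was 0.45 ± 0.084 in control-siRNA cells (adjusted p = 0.0067), 0.26 ± 0.084 in Ctnnb1-siRNA cells (adjusted p = 0.141) and 0.35 ± 0.059 on average (adjusted p = 0.0013), and the difference between the siRNAs was -0.19 ± 0.12 (adjusted p = 0.918). The average kept its call under all 22 alternatives. Mycn, its paralog, fell with dDAVP on average, with 13.2 to 17.2 CPM in dDAVP against 16.8 to 19.9 CPM in vehicle libraries (-0.27 ± 0.062, adjusted p = 0.0117), and this call also held under all 22. Mycl had 6.38 to 6.67 CPM in Ctnnb1-siRNA vehicle against 9.28 to 9.84 CPM in control-siRNA vehicle libraries (-0.56 ± 0.11, adjusted p = 0.0391). That call was lost without control-siRNA vehicle replicate 1, 2 or 3 (0.108, 0.174 and 0.181), control-siRNA dDAVP replicate 3 (0.0617) or Ctnnb1-siRNA vehicle replicate 1, 2 or 3 (0.161, 0.171 and 0.141). The average knockdown effect on Mycl was -0.37 ± 0.079 (adjusted p = 0.0246) and was lost without control-siRNA vehicle replicate 2 or 3 (0.0737 and 0.0745), control-siRNA dDAVP replicate 2 or 3 (0.0540 and 0.0829), Ctnnb1-siRNA vehicle replicate 1, 2 or 3 (0.0592, 0.0755 and 0.0635) or Ctnnb1-siRNA dDAVP replicate 1 (0.0555). The cyclin D and E2F genes of the list, and the kinase inhibitors, were not called by edgeR in any of the 7 comparisons.

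The 33 genes of G2 and mitosis, all tested, stood in contrast to the replication genes. For the average dDAVP effect 5 of the 33 were called lower, where 2.54% of all genes were. Of the 33 estimates 0 were positive, with a median of -0.10, against 48.4% positive and a median of -0.0046 over all tested genes. Ccna2, cyclin A2, had 422, 412 and 376 CPM in Ctnnb1-siRNA dDAVP against 462, 467 and 480.4 CPM in Ctnnb1-siRNA vehicle libraries. With control siRNA it had 402, 437 and 423 CPM in dDAVP against 441, 452 and 486 CPM in vehicle libraries. Every dDAVP library lay below every vehicle library. The average effect on Ccna2 was -0.17 ± 0.039 (edgeR adjusted p = 0.0113) and kept its call under all 22 alternatives. In Ctnnb1-siRNA cells alone Ccna2 changed by -0.22 ± 0.055 (adjusted p = 0.0433), a call that was lost under the replicate block (0.0691), with no filter (0.0603) and with the 2 groups alone (0.112). It was also lost without control-siRNA vehicle replicate 1 or 2 (0.0532 and 0.0672), control-siRNA dDAVP replicate 3 (0.0762), Ctnnb1-siRNA vehicle replicate 1, 2 or 3 (0.104, 0.150 and 0.153) or Ctnnb1-siRNA dDAVP replicate 2 or 3 (0.0633 and 0.0904). The other 4 were the checkpoint kinases Bub1 (-0.16, adjusted p = 0.0128) and Ttk (-0.17, adjusted p = 0.0297), the topoisomerase Top2a (-0.14, adjusted p = 0.0352) and the spindle protein Nusap1 (-0.13, adjusted p = 0.0432). The number called was 2, 2 and 1 without control-siRNA vehicle replicate 1, 2 and 3, 2 and 2 without control-siRNA dDAVP replicate 1 and 3, 3 and 2 without Ctnnb1-siRNA vehicle replicate 2 and 3, and 3 and 8 without Ctnnb1-siRNA dDAVP replicate 1 and 2. On log2 TPM, where the calls over all genes split into 352 higher and 703 lower in place of 714 and 419, 20 of the 33 were called. The median effect of dDAVP on the G2 and mitosis genes was -0.073 in Ctnnb1-siRNA and -0.12 in control-siRNA cells. On log2(TPM + 1) the average dDAVP estimate was positive in 7 of the 44 replication genes, and 4 of them were called lower. Their median on that scale was -0.048, as was that of all tested genes. Whether the G2 and mitosis list and the replication list differed in response was not tested.

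Reads of neighbouring genes limit 18 of the 44. These 18 overlap another annotated gene, among them Orc1 with Prpf38a, Mcm7 with Ap4m1 and the miRNAs of its intron, Fen1 with Tmem258, Tk1 with Afmid and Rfc4 with Eif4a2. The libraries were strand-specific per the labels, and whether counting used the strand is not given in the sources used here, so part of their reads may belong to the neighbour. The table also lists the pseudogenes Pcna-ps2 and Tyms-ps, whose reads could be divided with Pcna and Tyms.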

How the data were processed

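The authors' deposited table gives, per the file headers, unnormalised read counts and TPM values for 25208 genes in 12 libraries. All per-sample columns were used. The submitters' processing notes name FastQC, Trimmomatic, HISAT2, StringTie, DESeq2 and the builds GRCm38 and mm10, with no roles or versions. Here, counts were filtered with filterByExpr, which kept 16508 genes, scaled by TMM and fitted with the robust quasi-likelihood model of edgeR 4.0.16 in R 4.3.3, with 1 coefficient per group over the 12 libraries. The model gave 4 pairwise contrasts, the interaction and 2 averages, each with p-values adjusted by Benjamini-Hochberg across the tested genes. Calls required an adjusted p under 0.05. Adjusted p-values are edgeR's unless another tool is named. The TPM values deposited by the authors served for levels and for an alternative. Gene coordinates are those of the RefSeq annotation of GRCm38.p6. The fit was tested on simulated data. The 44 genes and the other lists were chosen with earlier results of these data known. Of the 44, those called, or the 6 with the smallest p where fewer were called, were given in every library, with the 2 highest and the 2 lowest by TPM. Of the other lists, up to 6 called genes were named, and part of those results is not reported here. Alternatives were upper-quartile scaling or DESeq2's size factors in edgeR, DESeq2 1.42.0 itself, voom with sample weights and limma on log2 TPM plus 1 or 0.1 (limma 3.58.1), a filter at 1 CPM in 3 libraries or none, the groups of a contrast alone, a replicate block, and each library left out in turn. The median over the 44 genes, the count of G2 and mitosis genes and the genes named from other lists were put through the same alternatives after the data were seen. No 2 libraries of a group agreed within counting error.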

Additional observations from a re-analysis of the deposited data

How the results depend on the processing

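The count of called replication genes was 0 in 149 of 154 results (22 alternatives by 7 comparisons), including each fit that left out a library. The exceptions were dDAVP in Ctnnb1-siRNA cells with DESeq2 (1 gene, Mcm4 higher) and the average dDAVP effect, which gave 2 with DESeq2 (Mcm4 and Ccne1 higher), 1 with voom (Mcm4 higher) and 4 on log2(TPM + 1) and 4 on log2(TPM + 0.1) (Rfc3, Rfc5, Gins3 and Fen1 lower). Of all 16508 tested genes these results called, in the same order, 728, 1438, 1843, 1055 (703 lower) and 1051 (696 lower). The largest change of any of the 44 genes in any result was 0.22 on the log2 scale. The 6 genes with the smallest p kept the sign of each change tested at an unadjusted p under 0.05 in all 22. On log2(TPM + 0.1) the medians over the 44 genes were -0.023 for dDAVP in Ctnnb1-siRNA and -0.077 in control-siRNA cells, -0.021 for Ctnnb1 siRNA with dDAVP and -0.090 with vehicle, -0.048 for the average dDAVP effect and -0.052 for the average knockdown effect, where the medians of all genes were -0.061, -0.057, -0.080, -0.080, -0.059 and -0.080. The median for dDAVP in Ctnnb1-siRNA cells was 0.067 with voom. Rn7sk, the RNA with the highest TPM in every library, took 53684 to 68410 TPM in Ctnnb1-siRNA dDAVP, 51390 to 55546 in Ctnnb1-siRNA vehicle, 48581 to 58676 in control-siRNA dDAVP and 37790 to 53991 in control-siRNA vehicle libraries, and its part in that shift was not tested.

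No pairing of the samples by replicate number was seen, though correlations of this kind cannot exclude a shared culture or batch. Libraries of different groups with the same number correlated at -0.086 to 0.072 in their deviations from group means, with 0 of 18 above 0.1, and those with other numbers at -0.15 to 0.16. With a replicate block 0 of the 44 genes were called in each comparison, the smallest adjusted p was 0.0864 (average dDAVP effect), Ccna2 lost its call in Ctnnb1-siRNA cells (0.0691), and over all genes 1064 were called for the average dDAVP effect against 1133 without the block.

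The G2 and mitosis genes called lower for the average dDAVP effect numbered 5, and 10 with voom, 20 on log2(TPM + 1) and 20 on log2(TPM + 0.1), and 1 to 8 when a library was left out. Bub1 lost its call without control-siRNA vehicle replicate 3 (0.0511). Myc lost its call in control-siRNA cells on both TPM scales (highest adjusted p 0.0552), and Mycl with vehicle likewise (0.0563 and 0.0693). Nusap1 lost its call with no filter (0.0664). Counts over all genes differed by more than 1.5 times in these cases. For dDAVP in Ctnnb1-siRNA cells 728 were called with DESeq2, 275 with the 2 groups alone and 210 and 219 on log2 TPM plus 1 and 0.1, against 459, and in control-siRNA cells 762 with DESeq2 and 1301 with voom, against 467. For Ctnnb1 siRNA with dDAVP 237 were called with DESeq2, 301 with voom, 8 with the 2 groups alone and 21 and 22 on log2 TPM, against 44, and with vehicle 177, 253 and 255 with DESeq2, voom and the 2 groups alone, against 71. The average dDAVP effect called 1843 with voom against 1133, the average knockdown effect 582 with DESeq2 and 924 with voom against 305, and the interaction 1 with DESeq2 and 2 on log2(TPM + 0.1) against 0. With a library left out these counts ran from 212 to 492, 240 to 843, 5 to 216, 18 to 181, 807 to 1279, 172 to 606 and 0 to 0 in the same order. On log2(TPM + 1) the calls split into 133 higher and 77 lower in place of 344 and 115 for dDAVP in Ctnnb1-siRNA and 170 and 231 in place of 316 and 151 in control-siRNA cells, 4 and 17 in place of 20 and 24 for Ctnnb1 siRNA with dDAVP and 15 and 44 in place of 34 and 37 with vehicle, and 45 and 224 in place of 155 and 150 for the average knockdown effect. With 3 libraries per group small changes could be missed, and a gene that was not called may still have changed within its interval.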
